A study of Bos taurus with 6 samples.

Results

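The endothelial junction genes are 10 genes of the contacts between the cells that line blood vessels: CDH5, CLDN5, OCLN, F11R, JAM2, JAM3, ESAM, PECAM1, TJP1 and CD93. They were chosen by name, each matched exactly 1 of the 34733 named entries of the deposited tables, and all 10 passed the filter on low values that left 12127 genes for testing. Their RNA was profiled in the side population (SP) and the main population (MP) of cells sorted from bovine (Bos taurus) endometrium, which lines the uterus, with 3 libraries of each. Both populations came from healthy luteal-phase uteri collected at slaughterhouses, with the luminal epithelium removed before a collagenase digest of the tissue between the caruncles. SP cells were gated by their ability to pump out the dye Hoechst 33342, MP cells keep the dye, dead cells were gated out with propidium iodide, and the labels name no antibody gate, so both populations may be mixtures. The labels call the starting digest stromal cells. Of 10 markers of stromal fibroblasts, 9 passed the test used below as lower in SP than in MP, beside 18.7% of all tested genes. Some markers were not absent from SP: DCN was at 126 to 194 FPKM there. DPT and HAND2 stayed under 1 FPKM in SP, so the filter fixed their direction. COL1A1, the 1 marker that did not pass that test (limma adjusted p = 0.0565), was at 53.9 to 78.8 FPKM in SP and at 90.5 to 964 FPKM in MP, also lower without overlap. No label says whether the libraries stem from separate animals or gives the animals' age, and the p-values therefore speak only of the spread between these libraries, which may be technical.

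Endothelial cells are joined by adherens junctions, built on VE-cadherin, and by tight junctions, built on claudins and occludin. Junctional adhesion molecules (JAMs) and related immunoglobulin-type receptors sit at the same contacts, and scaffold proteins of the zonula occludens tie them to the actin cytoskeleton. Together they set how easily water, proteins and leukocytes cross the vessel wall. Several of these genes are not specific to vessels: occludin, JAM-A and the scaffold ZO-1 also belong to the tight junctions of epithelium, and PECAM1 and JAM3 are also found on blood cells.

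Levels are in FPKM, fragments per kilobase of transcript per 1e+06 mapped fragments, so levels of different genes can be set side by side. Depth estimated from the smallest steps of the values was 11.3 to 21.7 in SP and 22.3 to 35.4 in MP, in units of 1e+06 fragments. MP replicate 3 lay nearest to SP, with Pearson r across genes from 0.832 to 0.880, against 0.736 to 0.830 for the other MP libraries. Per the file headers, only MP columns bear the tag micro; the labels do not explain it, and any difference in preparation behind it cannot be told apart from the population.

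Of the 10 genes, 6 rose in SP: CDH5, PECAM1, JAM2, ESAM, TJP1 and JAM3. None fell, and CD93, F11R, OCLN and CLDN5 did not pass the test (limma on log2(FPKM + 1), Benjamini-Hochberg adjusted p under 0.05 over all tested genes). Over all 12127 genes, 39.2% passed, 20.5% as higher and 18.7% as lower in SP. The same 6 genes were those whose SP values all lay above their MP values, which held for 28.3% of all tested genes; 26.5% lay wholly below and 54.8% were apart in either direction. The median log2 fold change of the 10 genes was 1.39, beside 0.0075 for all tested genes. Rescaling each library to a sum of 1e+06 moved the median of all genes to 0.19 and the share of calls that were higher in SP to 68.05%, against 52.3% as deposited, and kept the count of risen junction genes at 6.

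The number that rose depended on single libraries. It was 2 without SP replicate 1, 3 without SP replicate 2, 4 without SP replicate 3, 4 without MP replicate 1, 2 without MP replicate 2 and 7 without MP replicate 3. CDH5 and TJP1 were called in all 14 alternatives tried. With no filter on low values they were the only 2 called.

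**Figure D1:**
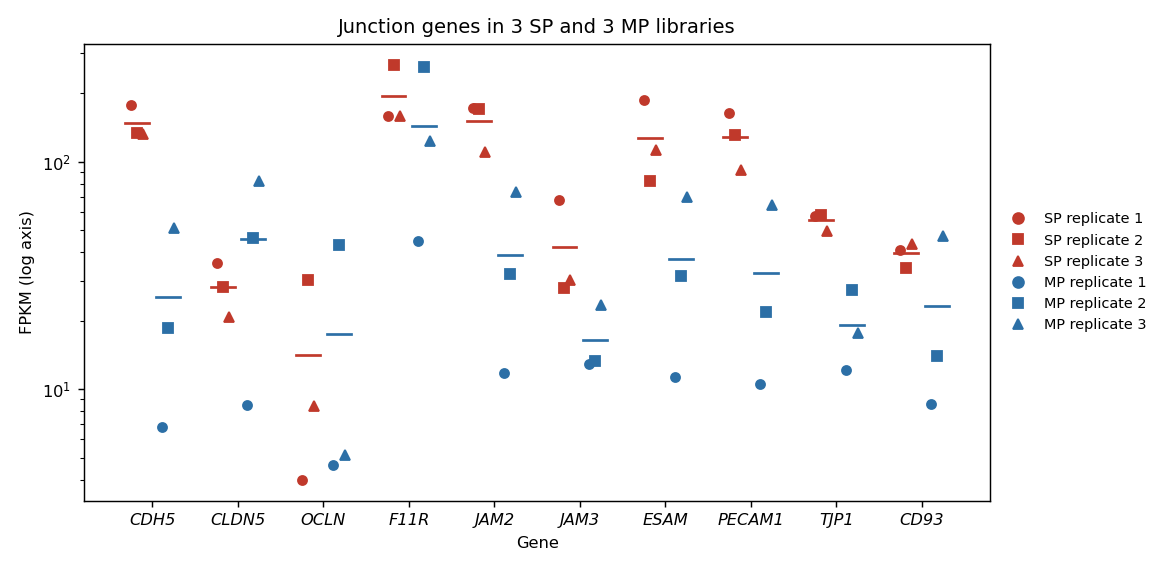
FPKM (log axis) of the 10 junction genes in each library, SP left (red) and MP right (blue), with marker shapes for replicate numbers and bars for group means. For CDH5, JAM2, JAM3, ESAM, PECAM1 and TJP1 all SP points lie above all MP points, and CLDN5, OCLN, F11R and CD93 overlap.

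CDH5 encodes VE-cadherin, the adhesive receptor of the endothelial adherens junction, and lies on chromosome 18 (34122721 to 34161590, build ARS-UCD1.2). SP replicates 1 to 3 had 177, 134 and 132 FPKM of it, against 6.81, 18.5 and 51.1 FPKM in MP replicates 1 to 3, the order used throughout. The SP values lay within a factor of 1.35 of each other, whereas the MP values spread over a factor of 7.50. Its log2 fold change was 2.88 ± 0.61 (SE; limma adjusted p = 0.0103), the largest of the 10 genes. The ratio of mean FPKM, SP over MP, was 5.80. In each alternative its call held, with log2 fold changes from 2.21 without MP replicate 1 to 3.58 without MP replicate 3. Because the cells are mixed, more endothelial cells in SP and more CDH5 RNA per cell cannot be told apart, and the same holds for each gene below.

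Most markers of endothelial cells outside the junction genes studied here moved with CDH5: 16 of 18 rose and none fell. Their summed level was 2119 to 3287 FPKM in SP and 263 to 1256 FPKM in MP. ESM1 and the gap junction gene GJA5 did not pass (log2 fold changes 1.15 and −0.72; limma adjusted p = 0.105 and 0.308). Among those that rose were SHANK3, a scaffold protein, SOX7, a transcription factor of endothelium, and ENG, a co-receptor for TGF-beta family ligands, with log2 fold changes of 2.30, 2.68 and 2.15 (limma adjusted p = 0.00325, 0.00884 and 0.00946). The median of these markers was 130.5, 96.6 and 87.8 FPKM in SP, against 7.26, 13.4 and 44.0 FPKM in MP, so that MP replicate 3 was the highest MP library here as for CDH5. The count of 16 was 10 with no filter on low values, 7 without SP replicate 1, 10 without MP replicate 1, where 1 marker fell, and 7 without MP replicate 2. The part of endothelial content in the changes of the junction genes was not tested.

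The tight junction strands are built by claudins and occludin. CLDN5, the claudin of endothelium that limits leakage of small molecules across vessels (chromosome 17, 72734557 to 72735831), did not differ between the populations as CDH5 did. It was at 35.8, 28.1 and 20.7 FPKM in SP and at 8.52, 46.0 and 81.8 FPKM in MP. Within each population its libraries stood in the same order as for CDH5. The highest and the lowest of the 6 values were both MP libraries, and the SP values lay between them. The log2 fold change was −0.22 with a 95% interval from −1.88 to 1.43 (limma adjusted p = 0.816), so neither a rise nor a fall of that size could be told from no change. Its sign turned without MP replicate 2 (0.024) and without MP replicate 3 (0.43). Without MP replicate 1 it was −1.13 (limma adjusted p = 0.0601).

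OCLN encodes occludin, a membrane protein of the strands of epithelial and some endothelial tight junctions (chromosome 20, 10229723 to 10276416). Its values were 3.98, 30.2 and 8.40 FPKM in SP and 4.62, 42.9 and 5.13 FPKM in MP. Replicate 2 was the highest library in both populations, by a factor of 7.58 over the lowest in SP and 9.28 in MP. The log2 fold change of OCLN was −0.017 with a 95% interval from −2.13 to 2.09 (limma adjusted p = 0.989), and its sign turned in 5 alternatives, listed further on.

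**Figure D2:**
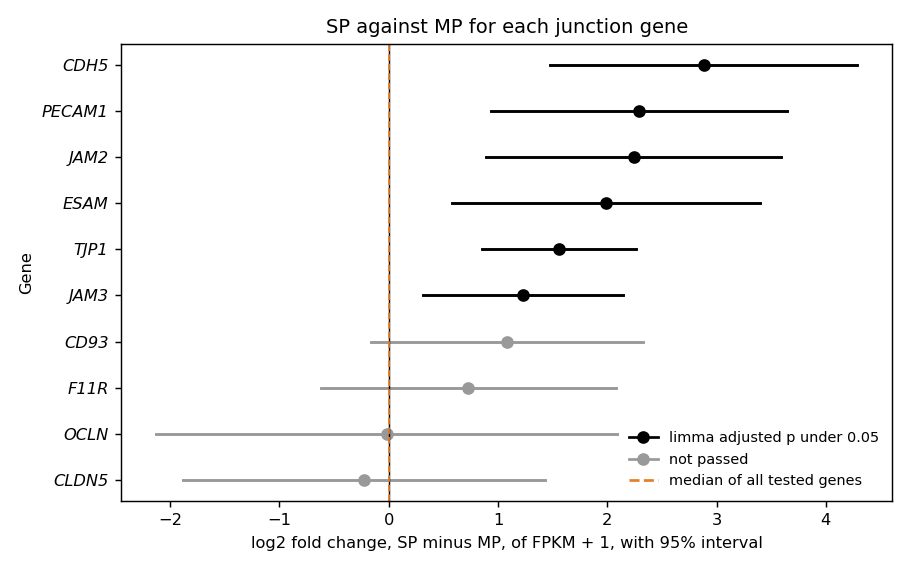
log2 fold change of each junction gene, SP minus MP, on the log2(FPKM + 1) scale, with 95% intervals from limma, in black where the adjusted p was under 0.05 and in grey where it was not. The values run from 2.88 for CDH5 to −0.22 for CLDN5, and the dashed line marks the median of all tested genes, 0.0075.

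The JAM family has 3 members here, adhesion receptors with a pair of immunoglobulin domains that bind across the contact and recruit scaffolds on the inner side. JAM2, which encodes JAM-B, a receptor of endothelium (chromosome 1, 10704997 to 10787558), was at 172, 170 and 110 FPKM in SP and at 11.7, 31.9 and 73.5 FPKM in MP. All SP values lay above all MP values, and MP replicate 3 was 3.37 times the mean of the other MP libraries. JAM2 rose, with a log2 fold change of 2.24 ± 0.58 (SE) and a limma adjusted p of 0.0208. This call was lost without SP replicate 1 (adjusted p = 0.0652), SP replicate 2 (0.0595) or MP replicate 2 (0.0571), and with no filter on low values (0.0551), over a range of 0.00513 to 0.0652 in the 14 alternatives.

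JAM3 encodes JAM-C, the partner of JAM-B across the contact, also present on platelets and smooth muscle (chromosome 29, 32993966 to 33024632). It was at 68.0, 27.8 and 30.2 FPKM in SP and at 12.8, 13.3 and 23.3 FPKM in MP. The groups did not overlap, but SP replicates 2 and 3 lay close to MP replicate 3. The log2 fold change of JAM3 was 1.23 ± 0.40 (SE; limma adjusted p = 0.0415), and it was 0.83 without SP replicate 1, which had the highest value. The call was lost without SP replicates 1 or 3 (adjusted p = 0.108 and 0.0616), without MP replicates 1 or 2 (0.116 and 0.117) and with no filter on low values (0.0845). Platelet markers were near 0: none of 6 passed the filter, with summed levels of 0.969 to 1.33 FPKM in SP and 0.133 to 0.594 FPKM in MP. GP9 and PPBP are listed at 0 in all 6 libraries and TREML1 in all SP libraries. ITGA2B, a platelet integrin, was at 1.33, 0.850 and 1.05 FPKM in SP and at 0.132, 0.290 and 0.374 FPKM in MP, without overlap. Of the 6 markers, 1 rose with no filter, with libraries rescaled to the same sum or with mitochondrially encoded and ribosomal protein genes left out. The part of platelet RNA in the level of JAM3 was not tested.

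F11R encodes JAM-A, the family member shared by endothelium, epithelium and blood cells (chromosome 3, 8463853 to 8488978). It had the highest mean of the 10 genes in both populations, at 158, 267 and 158 FPKM in SP and 44.8, 260 and 123 FPKM in MP. MP replicates 1 and 3 lay below all SP libraries, and MP replicate 2 lay just below the highest of them. Its log2 fold change was 0.73 with a 95% interval from −0.62 to 2.08 (limma adjusted p = 0.342). Without MP replicate 1 the log2 fold change was 0.072, and without MP replicate 2 it was 1.33 (limma adjusted p = 0.0847).

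The make-up of the JAM family differed between libraries. F11R held 39.8%, 57.4% and 52.9% of the summed FPKM of the 3 genes in SP replicates 1 to 3 and 64.6%, 85.2% and 56.0% in MP replicates 1 to 3. JAM2 held 43.1%, 36.6% and 37.0% in SP and 16.9%, 10.5% and 33.4% in MP, with no overlap between the populations. JAM3 held 5.99% to 17.1% in SP and 4.34% to 18.5% in MP, which overlapped throughout.

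**Figure D3:**
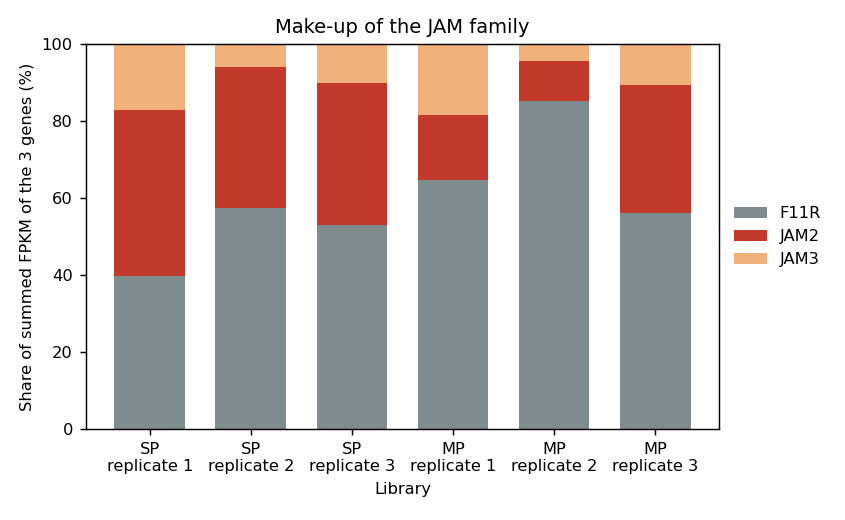
Share (%) of each JAM gene in the summed FPKM of F11R, JAM2 and JAM3 in each library, SP on the left and MP on the right. JAM2 takes 36.6% to 43.1% in SP libraries and 10.5% to 33.4% in MP libraries.

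ESAM and PECAM1 are immunoglobulin-type receptors that bind their own kind across the contact. ESAM, the endothelial cell-selective adhesion molecule (chromosome 29, 28226459 to 28241470), was at 187, 82.1 and 112 FPKM in SP and at 11.3, 31.4 and 69.7 FPKM in MP. SP replicate 2 and MP replicate 3 lay closest to each other. The log2 fold change was 1.99 ± 0.61 (SE; limma adjusted p = 0.0352), and the call was kept in 8 of 14 alternatives (adjusted p from 0.00932 to 0.111). Leaving out any library other than MP replicate 3 ended it, as did testing with no filter on low values. The listed locus of ESAM overlaps that of VSIG2, which did not exceed 5.97 FPKM, and whether strand was used in counting is not given in the sources used here.

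PECAM1, also called CD31, steers leukocyte passage and senses flow at endothelial contacts (chromosome 19, 48525295 to 48604449). It was at 163, 131 and 91.6 FPKM in SP and at 10.5, 21.8 and 64.5 FPKM in MP, with no overlap. PECAM1 rose, with a log2 fold change of 2.29 ± 0.58 (SE) and a limma adjusted p of 0.0197, and 10 of 14 alternatives kept the call, with adjusted p between 0.00362 and 0.0652. The call was lost without SP replicate 1 (adjusted p = 0.0652), SP replicate 2 (0.0532) or MP replicate 2 (0.0615) and with no filter on low values (0.0526). PECAM1 is also carried by leukocytes. Of their markers, 8 of 10 tested of 12 listed fell in SP and none rose. Their summed levels were 121 to 145 FPKM in SP and 425 to 777 FPKM in MP. CD14 alone held 86.9 to 105 FPKM of the SP sums. MS4A1, a B cell gene, is listed at 0 in all SP libraries, and PTPRC, the common leukocyte antigen, did not exceed 0.153 FPKM there. Of the 8 that fell, CD3E, CSF1R, NKG7 and PTPRC were under 1 FPKM in every SP library, so the filter fixed their direction, and CD14 did not pass (log2 fold change 0.73). The count of 8 was 4 without any one MP library, since the filter then removed CD3E, CSF1R, NKG7 and PTPRC. With libraries rescaled or without MP replicate 3, 1 marker rose. The named leukocyte genes CPA3 of mast cells, the myeloid adaptor TYROBP and the Fc receptor chain FCER1G had log2 fold changes of −5.55, −5.54 and −5.44 (limma adjusted p = 0.000241, 0.000329 and 0.000472). The part of leukocyte RNA in the level of PECAM1 was not tested.

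TJP1 encodes ZO-1, the scaffold that binds claudins, occludin and JAMs on the inner side of the membrane (chromosome 21, 28398722 to 28658040). It was at 57.7, 58.4 and 49.7 FPKM in SP and at 12.1, 27.4 and 17.6 FPKM in MP. Both groups were tight, within a factor of 1.17 in SP and 2.26 in MP, and MP replicate 3 did not stand nearer to SP than MP replicate 2. The log2 fold change was 1.56 ± 0.31 (SE), with the smallest limma adjusted p of the 10 genes (0.00818) and values from 1.29 to 1.85 in the 14 alternatives.

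CD93 is a C-type lectin-like receptor of endothelium that binds the matrix protein multimerin 2 and is needed for stable cell contacts (chromosome 13, 41878369 to 41881876). Its values were 40.9, 33.9 and 43.6 FPKM in SP and 8.57, 14.0 and 46.9 FPKM in MP. MP replicate 3 was the highest of all 6 libraries, 4.15 times the mean of the other MP libraries. Its log2 fold change was 1.08 with a 95% interval from −0.16 to 2.33 (limma adjusted p = 0.142). Only without MP replicate 3 was CD93 called, at 1.75 (adjusted p = 0.0059).

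The order of levels differed between the populations. In SP the means ran from F11R (194 FPKM) through JAM2 (151), CDH5 (148), PECAM1 (129) and ESAM (127) to TJP1 (55.3), JAM3 (42.0), CD93 (39.5), CLDN5 (28.2) and OCLN (14.2). Of these neighbours only ESAM and TJP1 did not overlap in their SP values. In MP the order was F11R (143 FPKM), CLDN5 (45.5), JAM2 (39.0), ESAM (37.5), PECAM1 (32.3), CDH5 (25.5), CD93 (23.2), TJP1 (19.0), OCLN (17.5) and JAM3 (16.5), and all neighbours overlapped. CLDN5 ranked ninth in each SP library and eighth, second and second in MP replicates 1 to 3.

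Each gene was also set against CDH5 within each library, as the log2 ratio of FPKM + 1. Since CDH5 rose most, all 9 ratios were lower in SP. The CDH5 values of SP and MP lay apart, so ratios of genes that changed little tend to lie apart too. The share of all tested genes with such ratios was not computed, and only the size of the gaps is compared. The log2 ratio of CLDN5 to CDH5 was −2.28, −2.21 and −2.61 in SP replicates 1 to 3 and 0.29, 1.27 and 0.67 in MP replicates 1 to 3. The gap between the means, −3.11, was the largest of the 9 with all libraries, but the gap of OCLN was larger without SP replicate 2 (−3.69) or MP replicate 3 (−4.05). That of CLDN5 ranged from −3.33 to −2.84 with another pseudocount or without any one library. The exact two-sided permutation test gave p = 0.1, the smallest that 3 against 3 libraries allow (0.129 adjusted over the 9 ratios).

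The corresponding gaps were −2.90 for OCLN, −2.15 for F11R, −1.80 for CD93, −1.65 for JAM3, −1.33 for TJP1, −0.89 for ESAM, −0.64 for JAM2 and −0.59 for PECAM1. Single libraries moved some of them: OCLN ranged from −4.05 without MP replicate 3 to −1.92 without MP replicate 2, F11R from −2.78 to −1.54 without the same libraries, and TJP1 from −2.03 without MP replicate 3 to −0.92 without MP replicate 1. SP and MP ratios did not overlap for CLDN5, ESAM, PECAM1, JAM2, JAM3, F11R and CD93, each with an exact permutation p of 0.1 (0.129 adjusted over the 9 ratios). The ratios overlapped for TJP1 and OCLN (exact permutation p = 0.3 and 0.2). Because CDH5 itself separated the populations, the lack of overlap in the others is not read as a trait of these genes. For PECAM1, JAM2 and ESAM the ratio stayed within a narrow band, from −0.70 to 0.75 over all 6 libraries, whereas CLDN5 spanned −2.61 to 1.27.

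**Figure D4:**
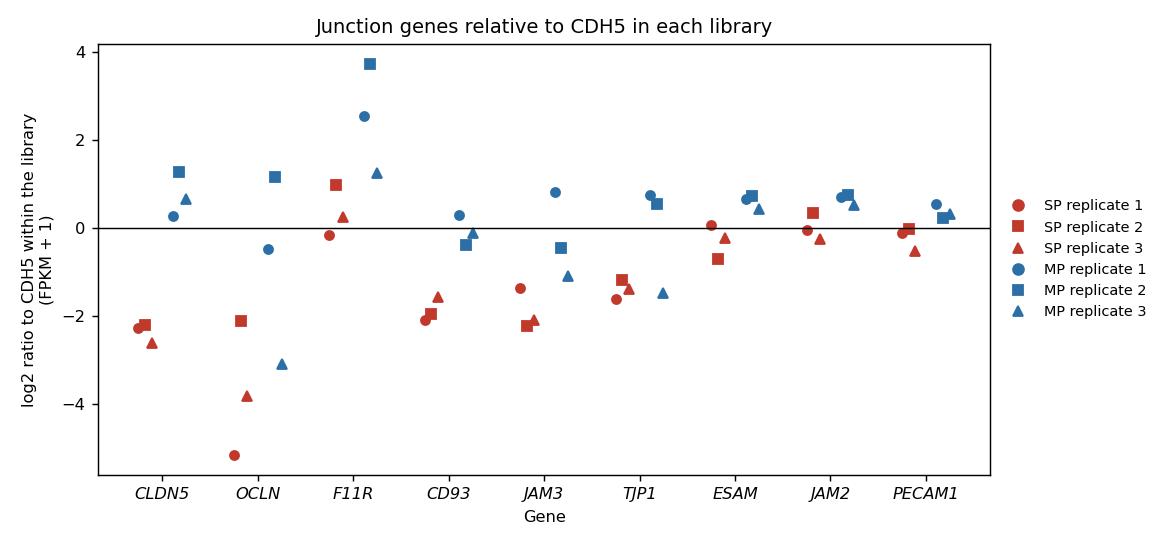
log2 ratio of each gene to CDH5 within each library, on FPKM + 1, SP left (red) and MP right (blue) for each gene. CLDN5 lies between −2.61 and −2.21 in SP and between 0.29 and 1.27 in MP, and the ratios of JAM2, PECAM1 and ESAM stay near 0.

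OCLN and F11R are also tight junction genes of epithelium, and both populations held RNA of epithelial markers. None of 13 tested of 14 listed passed in either direction, though 1 fell without SP replicate 3, and their summed level was 182 to 1327 FPKM in SP and 644 to 2558 FPKM in MP. EPCAM, an epithelial adhesion molecule, was at 30.3, 432 and 134 FPKM in SP and at 76.9, 609 and 56.6 FPKM in MP, and SPINT2, an epithelial protease inhibitor, at 38.6 to 184 FPKM in SP, against 144 to 477 FPKM in MP. As for OCLN, replicate 2 was the highest library of each population for EPCAM. Not all listed epithelial markers shared this. In SP, replicate 3 was the highest for ELF3, ESRP1, FOXA2, GRHL2, KRT18, PAX8 and RAB25, and in MP, replicate 1 was the highest for PAX8. The rest of the list had replicate 2 highest in both populations. Across the 6 libraries OCLN and EPCAM had Pearson r = 0.972 on log2(FPKM + 1), 18th among all tested genes, whereas OCLN and CDH5 had r = −0.037. The 4 genes most like OCLN were SPTLC1, SPECC1, FAM177A1 and LOC107133199 (r from 0.991 to 0.997). These r values describe 6 libraries that also differ in depth. The part of epithelial RNA in the levels of OCLN and F11R was not tested.

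**Figure D5:**
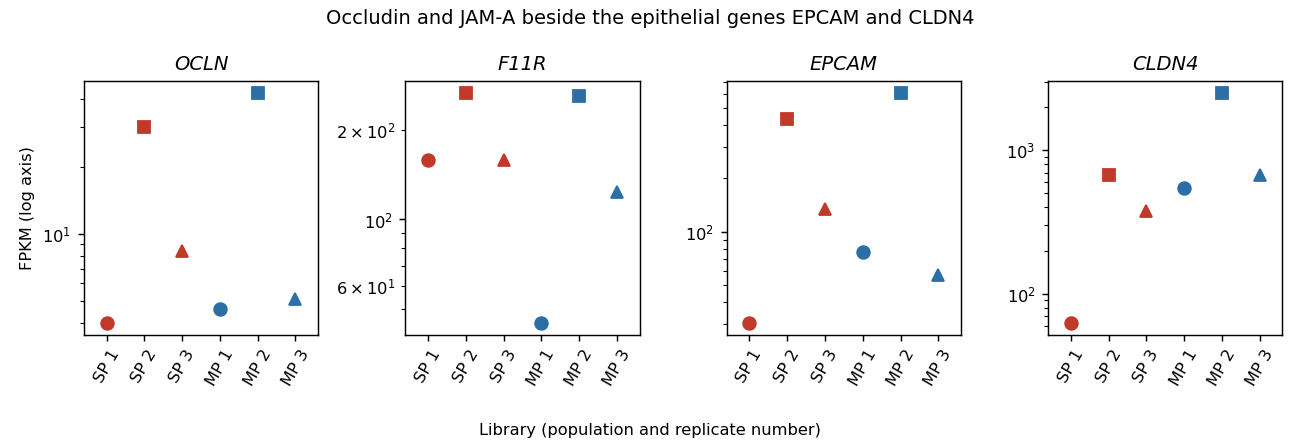
FPKM (log axes) of OCLN, F11R, EPCAM and CLDN4 in each library, SP on the left (red) and MP on the right (blue). Replicate 2 is the highest library of each population in every panel, with OCLN at 30.2 FPKM in SP replicate 2, against 42.9 FPKM in MP replicate 2.

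For CDH5 the 4 genes most like it over the 6 libraries were LOC514257, DOCK9, ADGRL4 and RNF19A (r from 0.997 to 0.998). With so few libraries 702 genes had r over 0.95 with CDH5. Among the junction genes PECAM1, JAM2 and ESAM were most like it (r = 0.990, 0.988 and 0.971), then CD93 (0.901), TJP1 (0.887) and JAM3 (0.877). F11R (0.591), CLDN5 (0.359) and OCLN (−0.037) were least like it.

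Catenins and plaque proteins hold the adherens junction on its inner side, and nectins are further adhesion receptors there. Of 10 catenin, nectin and plaque genes 2 rose and none fell, with a median log2 fold change of 0.54. AFDN, which encodes afadin, the link of nectins to actin, was at 18.0, 14.6 and 13.5 FPKM in SP and at 3.82, 4.62 and 4.85 FPKM in MP (log2 fold change 1.59, limma adjusted p = 0.00325). NECTIN1, an adhesion receptor, was at 2.93 to 4.95 FPKM in SP and below 1 FPKM throughout MP, which means that the filter fixed its direction in advance. Without any one SP library, or among genes averaging 5 FPKM or more, the filter removed NECTIN1 and the count was 1. With libraries rescaled to the same sum the count was 5.

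Among 9 tested of 11 listed other cadherins, 3 rose and 2 fell. PCDH17, a protocadherin, was at 52.1, 63.4 and 22.2 FPKM in SP and at 1.19, 3.98 and 8.94 FPKM in MP (log2 fold change 3.17, limma adjusted p = 0.00698). CDH17 and CDH3, known from epithelia, fell, with log2 fold changes of −1.73 and −0.92 (limma adjusted p = 0.0135 and 0.0109). CDH3 was under 1 FPKM in every SP library and PCDH12, which rose, in every MP library, so the filter fixed the direction of both. CDH5 made up 60.6%, 40.3% and 58.7% of the summed FPKM of CDH5 and these cadherins in SP and 11.4%, 17.4% and 43.0% in MP, where MP replicate 3 exceeded SP replicate 2. The 3 that rose were 1 without SP replicates 1 or 3, without MP replicate 2 or among genes averaging 5 FPKM or more. The 2 that fell were 1 without any one MP library and 0 among genes averaging 5 FPKM or more. The filter removed PCDH12 without any one SP library and CDH3 without any one MP library, so these were not retested. The mean of 5 FPKM removed CDH2, PCDH12, CDH17 and CDH3.

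Claudins other than CLDN5 gave 9 tested of 18 in the tables, with CLDN10 lower and none higher. CLDN10, a claudin of epithelia, was at 3.92, 9.11 and 4.41 FPKM in SP and at 27.3, 14.1 and 9.98 FPKM in MP (log2 fold change −1.37, limma adjusted p = 0.0353). That call was lost without SP replicates 1 or 3 or MP replicates 1 or 2, with no filter on low values and with libraries rescaled to the same sum. Without MP replicate 3, with no filter and with rescaled libraries, 1 claudin rose. The largest share of claudin RNA in each library was that of CLDN4, an epithelial claudin, with 31.4% to 55.4% of the summed FPKM in SP and 59.8% to 67.4% in MP. CLDN5 held 18.0%, 2.31% and 2.85% in SP and 1.01%, 1.23% and 7.27% in MP.

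Scaffolds and partners of the tight junction gave 7 higher and 1 lower of 20 tested. MAGI1, a scaffold that binds at endothelial and epithelial contacts, and AMOTL1, an angiomotin relative, rose by 2.08 and 1.88 on the log2 scale (limma adjusted p = 0.00804 and 0.0134). The epithelial ZO-3 gene TJP3 was at 0.562 to 2.36 FPKM in SP, against 1.12 to 2.99 FPKM in MP, and did not pass. The 7 that rose were 3 without SP replicate 1 and 4 without MP replicate 2, with no filter or among genes averaging 5 FPKM or more. The 1 that fell, PARD6A (limma adjusted p = 0.0498), was not called in at least 7 alternatives, in which no gene of this list fell.

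Among other receptors of cell contacts, 1 of 10 rose and 1 fell. PVR, a nectin-like receptor, was at 731, 425 and 421 FPKM in SP and at 56.7, 97.9 and 237 FPKM in MP (log2 fold change 2.20, limma adjusted p = 0.0138). CLMP, an adhesion molecule related to the JAMs, fell by 2.37 on the log2 scale (limma adjusted p = 0.0103), with every SP value under 1 FPKM, so the filter fixed its direction. Without any one MP library, or among genes averaging 5 FPKM or more, the filter removed CLMP, so its call was not retested. The count that rose was 2 without MP replicate 3, with quantile normalization or with mitochondrially encoded and ribosomal protein genes left out, and 3 with libraries rescaled to the same sum.

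The receptors nearest to CD93 and its ligands gave 3 higher and 1 lower of 6 tested. MMRN2, the multimerin that CD93 binds, was at 25.9, 15.7 and 18.5 FPKM in SP and at 1.34, 2.51 and 9.73 FPKM in MP (log2 fold change 2.21, limma adjusted p = 0.016). MSN, which encodes moesin, a linker of CD93 to actin, rose by 1.29 (limma adjusted p = 0.0224), and CLEC14A also rose. CD248, the relative of CD93 found on fibroblasts and pericytes, was at 1.75, 1.92 and 3.74 FPKM in SP and at 86.1, 29.7 and 21.5 FPKM in MP (log2 fold change −3.54, limma adjusted p = 0.00324). Markers of stromal fibroblasts fell in 9 of 10, with summed levels of 288 to 483 FPKM in SP and 2907 to 11109 FPKM in MP, among them DPT, DCN and PDGFRA (log2 fold changes −3.23, −4.48 and −3.16; limma adjusted p = 0.000725, 0.00133 and 0.0025). DPT and HAND2, both among the 9, were under 1 FPKM in every SP library, so the filter fixed their direction. Markers of pericytes and smooth muscle fell in 5 of 8 tested, with sums of 238 to 440 FPKM in SP and 1156 to 1952 FPKM in MP, among them ACTA2, DES and CNN1 (−2.49, −2.76 and −2.92; limma adjusted p = 0.0021, 0.00345 and 0.00499). The 3 that rose in the CD93 group were 0 without SP replicate 1 or MP replicate 2 and 1 without SP replicate 2 or MP replicate 1.

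Genes that strengthen or loosen VE-cadherin contacts gave 8 higher and none lower of 13, with a median log2 fold change of 1.80. RAPGEF1, which activates the small GTPase Rap1, was at 103, 40.2 and 71.2 FPKM in SP and at 6.27, 5.15 and 11.5 FPKM in MP (log2 fold change 3.04, limma adjusted p = 0.00275). PTPRB, the phosphatase VE-PTP that acts on the VE-cadherin complex, was at 41.4, 27.9 and 22.1 FPKM in SP and at 1.73, 3.23 and 9.59 FPKM in MP (log2 fold change 2.62, limma adjusted p = 0.00725). HEG1, the membrane receptor of the cerebral cavernous malformation complex, rose by 2.37 (limma adjusted p = 0.00828). The count of 8 was 4 without SP replicates 1 or 3 or MP replicates 1 or 2, and 5 with no filter.

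Lymphatic vessels also carry several of these junction genes. Only 2 of 6 lymphatic markers were tested and neither passed, with summed levels of 8.002 to 84.1 FPKM in SP and 14.4 to 26.9 FPKM in MP. PROX1, the transcription factor that defines lymphatic endothelium, did not exceed 0.582 FPKM in SP or 0.487 FPKM in MP. LYVE1 was at 82.1, 4.25 and 34.2 FPKM in SP and 6.24, 1.68 and 15.4 FPKM in MP, and PDPN had 0.230 to 6.64 FPKM in SP, against 3.45 to 19.96 FPKM in MP. Of these markers 1 rose without SP replicate 2 or with mitochondrially encoded and ribosomal protein genes left out, and 1 fell without SP replicate 3 or MP replicate 3.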

How the data were processed

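RNA of 3 SP and 3 MP samples was sequenced from stranded mRNA libraries converted for MGI instruments, per the labels' protocols. The deposited values are FPKM per library, per the file headers. Per the submitters' processing notes, the tools include cutadapt 2.5 and HISAT2 2.1.0 and the build is ARS-UCD1.2. Which program gave FPKM, from which annotation and with what use of strand is not given in the sources used here. Locus starts, counted from 0 in the files, were raised by 1. The row without a gene name, 0.18% to 1.91% of a library, was left out.

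A gene was tested where 3 or more of 6 libraries reached 1 FPKM, on log2(FPKM + 1), which understates the change of low genes, with limma 3.58.1 in R 4.3.3 (trend, two-sided, threshold 0.05). Simulated data held 50 genes changed by each log2 size, far fewer than were called here. Of true changes of 1, 2, 3 and 4, 14%, 76%, 82% and 96% were called, and 6.29% of calls were false. A gene that did not pass may therefore still have changed. FPKM carries no counts. Depth was read from the value of 1 fragment in loci of 600 to 4000 bp, and the lower depth of SP limits its low values. Ratios were tested with exact permutation (scipy 1.17.1). Members, the 14 other lists and the tests were chosen with earlier results of these data known. From each list the up to 3 called genes of smallest p were named or, with none called, the 2 of highest mean; 1 gene that this rule names is not reported here, and other genes were named after their values were seen. Promoter and protein sequences were not used here. Alternatives changed the pseudocount, filter, scaling, variance trend, block and libraries. Fits without 1 library still required 3 libraries at 1 FPKM.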

Additional observations from a re-analysis of the deposited data

How the results depend on the processing

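The number of junction genes that rose, 6, was 2 with no filter on low values and 2 to 7 without any one library, and 5 or 6 in the other alternatives; none fell in any of the 14. All called genes numbered 4759 and 2421 to 4455 without any one library. Of 140 fold changes of single genes, 112 kept direction and side of the threshold, 20 lost the call and 1 gained it. The other 7, of OCLN and CLDN5 and never called, turned sign: OCLN with libraries rescaled to the same sum (0.19), without mitochondrially encoded and ribosomal protein genes (0.047), without SP replicates 1 or 3 (0.58 and 0.12) and without MP replicate 2 (0.95), within a range of −0.75 to 0.95 without any one library; CLDN5 without MP replicates 2 or 3 (0.024 and 0.43), within −1.13 to 0.43. The cause was not tested. All 63 recomputed ratios to CDH5 kept their sign, which only restates that CDH5 kept the largest log2 fold change of the junction genes. Of the recomputed counts of other lists, 73 moved by over 1.5 times, some because the filter removed genes, and 319 did not.

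SP and MP libraries have the same numbers in the labels. The column names also number both populations alike, under the tag Stroma, but not with the same numbers as the labels. What a number marks is not given, so whether same-numbered SP and MP libraries share a digest is not known. The numbers were not taken as pairs. Deviations of same-numbered libraries from the group means had r = 0.11, 0.53 and −0.085. With the replicate block 5 junction genes rose (JAM3 lost, limma adjusted p = 0.0533) and 4793 of all genes were called. In that fit 2 epithelial markers and 3 claudins fell, and 1 lymphatic marker, 1 claudin and 2 other contact receptors rose. SP replicates 1 to 3 did not each correlate best with their own number.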

Other observations

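GJA5, which encodes connexin 40, a gap junction protein of arterial endothelium, stood beside CLDN5 among the endothelial genes and was named after its values were seen. The SP libraries had 4.47, 4.61 and 8.36 FPKM of it, against 3.65, 12.2 and 19.8 FPKM in the MP libraries. MP replicate 3 was the highest and MP replicate 1 the lowest library, as for CLDN5 and also for CD93. Its log2 fold change was −0.72 (limma adjusted p = 0.308). Against CDH5 within each library, the gap between the mean log2 ratios of SP and MP was −3.60 for GJA5 and −3.11 for CLDN5, the lowest of these 18 markers and CLDN5, followed by ESM1 at −1.73. The remaining markers ran from −1.10 for ECSCR to 0.066 for KDR, among them SOX17 at −0.79, ENG at −0.73 and VWF at −0.092.

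CLDN11, a claudin of other barrier tissues that was also named after its values were seen, was at 33.5, 72.9 and 35.2 FPKM in SP and at 1.74, 10.8 and 29.9 FPKM in MP. The groups did not overlap, but the gene did not pass (log2 fold change 2.18, limma adjusted p = 0.0617). CTNNB1, which encodes beta-catenin, was at 254, 162 and 147 FPKM in SP and at 96.1, 104 and 124 FPKM in MP, also without overlap and without passing (0.76, limma adjusted p = 0.0564).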
